A study of Mus musculus with 8 samples.

Results

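Cholesterol is made in animal cells from acetyl-CoA through mevalonate, farnesyl diphosphate, squalene and lanosterol, and most of the genes for this route are read under the transcription factor SREBP-2, whose release from the endoplasmic reticulum is held back by INSIG proteins when sterols are plentiful. The 8 genes described here are 7 enzymes of that route in mouse, Hmgcs1, Mvd, Idi1, Fdps, Sqle, Lss and Cyp51, and Insig1, which is both a target and a brake of the same control. Each was taken where the value table held a row annotated to that gene symbol alone. Such a row existed for 7 of the 8 among 22180 genes measured, with 1 row per gene. The row of Idi1, which makes the allylic isomer that farnesyl diphosphate synthase needs, is annotated to that gene and to another, so Idi1 has no value here.

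RNA was measured in the aorta of newborn C57BL/6 mice (postnatal day 0) that were wild-type or knockout for fibulin-4, a secreted protein of the matrix without which elastic fibres do not form. The ascending segment reached from the valve as far as the ductus arteriosus, and the labels give the descending segment as the part between vena cava and diaphragm. Tissue of 8 pups of 1 genotype and segment was pooled for each array, and the labels call the 2 arrays of each of the 4 groups biological replicates. The sources used here do not say how the knockout allele was made or which sex the pups were. The aorta of smooth muscle, fibroblasts, endothelium and attached tissue was measured whole, so fewer cells of a type and less RNA per cell cannot be told apart.

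The values are log2 intensities normalised by the authors, and a difference of 1 is a doubling. Medians over the named genes lay between 4.98 and 5.08 on the 8 arrays. Replicate 2 of both wild-type groups had a narrower spread, with interquartile ranges of 1.80 (ascending) and 1.74 (descending) against 2.14 to 2.28 elsewhere, and the values of Hmgcs1, Cyp51 and Insig1 without these 2 arrays are given where they differ most. The 10 smooth muscle markers had a median percentile of 96.4 to 97.3 among all genes on every array.

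Promoter sequences are shown for 4 members to set the gene with the largest difference between genotypes, Hmgcs1, beside Cyp51 and Insig1, which differed less, and Mvd, which differed least. Each is the 250 bases before the start of the gene in RefSeq (GRCm38.p6), written 5′ to 3′ on the gene's strand. Capitals mark matches on either strand to TCACNCCAC, a form of the sterol regulatory element to which SREBP proteins bind, and to CCAAT, the box of their partner NF-Y. The windows are chr13:119690101-119690350 on the plus strand for Hmgcs1, chr5:4104698-4104947 on the minus strand for Cyp51, chr5:28071162-28071411 on the plus strand for Insig1 and chr8:122443423-122443672 on the minus strand for Mvd.
Hmgcs1: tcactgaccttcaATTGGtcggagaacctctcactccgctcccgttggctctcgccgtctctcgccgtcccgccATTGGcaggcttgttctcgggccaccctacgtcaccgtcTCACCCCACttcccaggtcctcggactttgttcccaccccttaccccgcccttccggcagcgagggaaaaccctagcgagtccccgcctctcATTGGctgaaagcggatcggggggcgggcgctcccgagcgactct
Cyp51: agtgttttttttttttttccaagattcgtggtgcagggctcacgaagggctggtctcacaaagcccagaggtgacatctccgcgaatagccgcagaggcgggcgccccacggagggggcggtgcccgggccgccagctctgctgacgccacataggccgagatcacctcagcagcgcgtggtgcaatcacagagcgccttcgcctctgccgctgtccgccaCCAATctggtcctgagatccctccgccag
Insig1: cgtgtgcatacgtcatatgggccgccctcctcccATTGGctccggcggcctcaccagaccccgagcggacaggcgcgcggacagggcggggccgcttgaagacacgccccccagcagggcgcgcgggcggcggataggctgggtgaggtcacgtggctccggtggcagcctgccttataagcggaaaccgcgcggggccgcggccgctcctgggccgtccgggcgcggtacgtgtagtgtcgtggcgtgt
Mvd: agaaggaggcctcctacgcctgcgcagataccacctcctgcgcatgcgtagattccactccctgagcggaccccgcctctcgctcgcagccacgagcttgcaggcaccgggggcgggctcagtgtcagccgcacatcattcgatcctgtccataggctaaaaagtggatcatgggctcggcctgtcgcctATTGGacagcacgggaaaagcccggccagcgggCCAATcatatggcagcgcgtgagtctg
Of the 8 members, 6 had a window in the table used (Cyp51, Insig1, Mvd, Lss, Idi1 and Hmgcs1). Over each window of 300 bases, which adds 50 bases after the start, TCACNCCAC was found in Hmgcs1 alone, as TCACCCCAC from -137 to -129 relative to the start. That motif was held by 1.24% of the 32851 windows in the table, and TCACNCCAC together with CCAAT by 0.441%. CCAAT was found in all 6 windows and in 37.4% of all windows, with 4 matches in Hmgcs1, 2 in Mvd and 1 each in Cyp51 and Insig1. GGGCGG, the box of Sp1, was found in all 6 and in 35.7% of all windows. A match is a string of letters and was not tested for binding, and other forms of the element were not searched.

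The main comparison asked how the knockout differed from wild-type with both segments averaged. Hmgcs1, Cyp51, Insig1, Fdps and Sqle had higher means in knockout aorta, by 0.56 to 1.00 on the log2 scale, while Lss differed by 0.16 and Mvd by -0.06. None of the 7 passed an adjusted p under 0.05 in limma's moderated test (Benjamini-Hochberg over all 22180 genes), a threshold that 0.0721% of all genes passed. At an unadjusted p under 0.05, 5 of the 7 were higher in knockout and 0 were lower, against 7.57% of all genes higher and 3.83% lower. The change was above 0 in 6 of the 7 and in 49.8% of all genes, and the median over the 7 was 0.68 against -0.0013 over all genes. The members were picked with results of these data known, so these counts describe them and are not independent evidence.

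**Figure D1:**
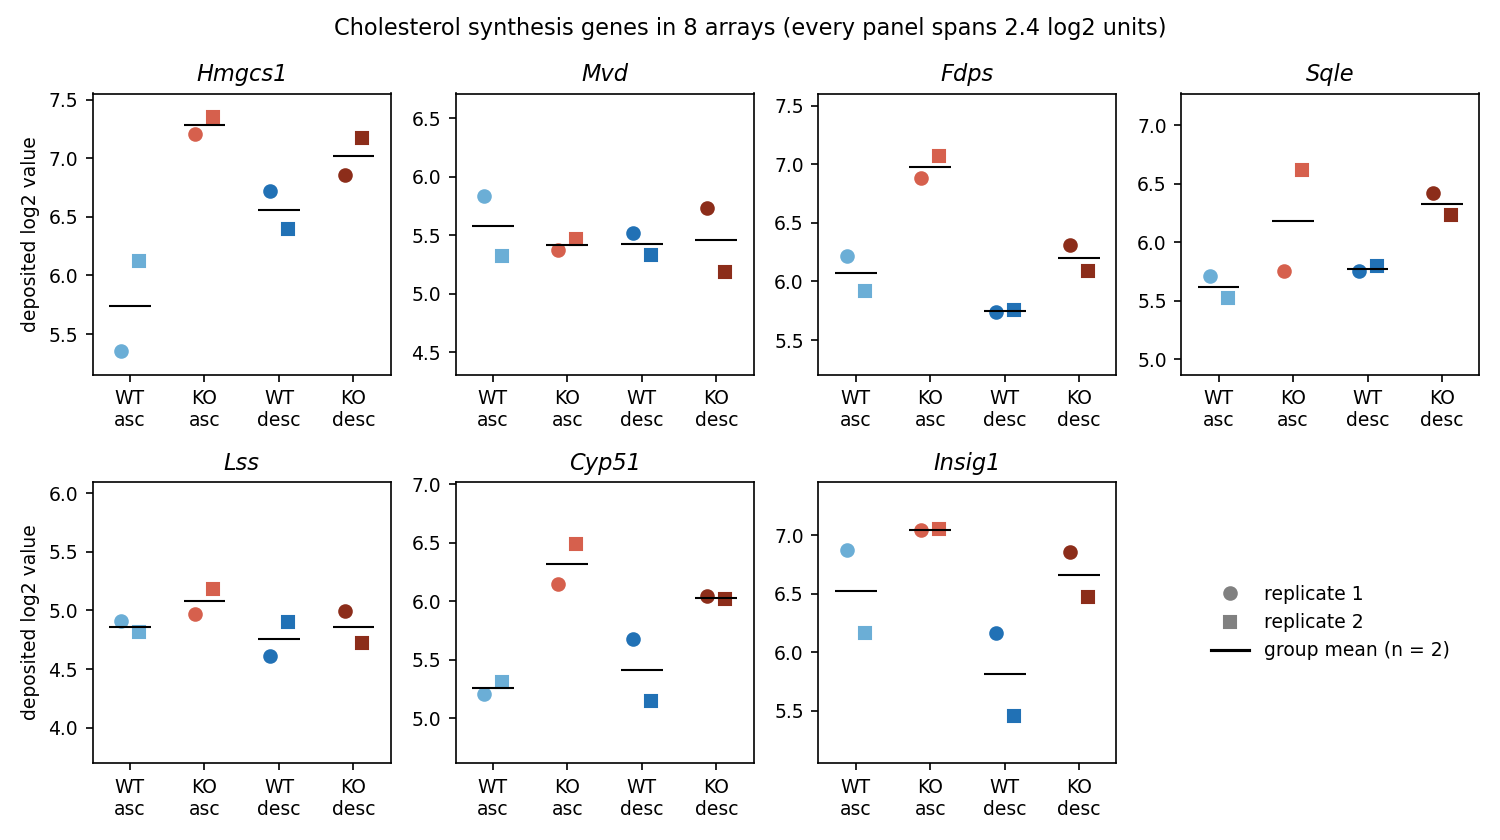
Deposited log2 value (y axis) of each measured cholesterol synthesis gene on the 8 arrays, by group (x axis: WT, wild-type; KO, knockout; asc, ascending; desc, descending). Circles and squares are replicates 1 and 2 and lines are group means of 2 arrays. All 4 knockout arrays lie above all 4 wild-type arrays for Hmgcs1 and Cyp51, and the groups of Mvd overlap.

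Hmgcs1 encodes the cytosolic enzyme that condenses acetyl-CoA with acetoacetyl-CoA to HMG-CoA, the step before mevalonate is formed. Its log2 values were 5.35 and 6.12 in wild-type ascending, 6.72 and 6.39 in wild-type descending, 7.21 and 7.35 in knockout ascending and 6.86 and 7.18 in knockout descending aorta. The lowest knockout array was above the highest wild-type array, and the order of the group means was wild-type ascending, wild-type descending, knockout descending, knockout ascending, with no overlap between neighbours. The averaged difference was 1.00 ± 0.22 (SE), or 2.00-fold (limma adjusted p = 0.170). The same order held for its rank: Hmgcs1 lay at percentile 57.8 and 78.2 of its own array in wild-type ascending, 83.5 and 83.3 in wild-type descending, 84.3 and 88.8 in knockout descending and 89.0 and 90.0 in knockout ascending aorta.

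Mvd encodes the decarboxylase that turns mevalonate diphosphate into isopentenyl diphosphate, the unit from which all isoprenoids are built. On the log2 scale it measured 5.84 and 5.33 in wild-type ascending, 5.52 and 5.33 in wild-type descending, 5.37 and 5.47 in knockout ascending and 5.74 and 5.18 in knockout descending aorta. The 4 groups overlapped and their means, between 5.42 and 5.58, had no order beyond the spread. Averaged over segments it differed by -0.06 with a 95% interval from -0.52 to 0.40 (limma adjusted p = 0.930), so a change of up to 0.40 upward lies within the error.

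Fdps encodes farnesyl diphosphate synthase, whose product is the branch point to sterols, ubiquinone, dolichol and protein prenylation. The arrays read log2 values of 6.22 and 5.92 in wild-type ascending, 5.74 and 5.75 in wild-type descending, 6.88 and 7.07 in knockout ascending and 6.31 and 6.09 in knockout descending aorta. Knockout ascending stood above every other group, wild-type descending below every other, and the groups between them overlapped. The averaged knockout difference came to 0.68 ± 0.18 (SE), or 1.60-fold (limma adjusted p = 0.244).

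Sqle encodes squalene epoxidase, the first oxygen-using and a rate-controlling step after squalene. Log2 values of Sqle were 5.71 and 5.52 in wild-type ascending, 5.75 and 5.80 in wild-type descending, 5.75 and 6.62 in knockout ascending and 6.42 and 6.24 in knockout descending aorta. Knockout ascending replicate 1 lay within the wild-type descending values and replicate 2 was the highest of all 8, so the difference in that segment rests on 1 array. Averaged over segments, Sqle differed by 0.56 ± 0.22 (SE), or 1.47-fold (limma adjusted p = 0.390), and was 0.34 without knockout ascending replicate 2 and 0.78 without replicate 1.

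Lss encodes lanosterol synthase, which closes the sterol rings. For Lss the log2 values were 4.91 and 4.81 in wild-type ascending, 4.61 and 4.90 in wild-type descending, 4.97 and 5.19 in knockout ascending and 5.00 and 4.72 in knockout descending aorta. The ascending groups did not overlap and the descending groups did. Lss had an averaged difference of 0.16 with a 95% interval from -0.24 to 0.56 (limma adjusted p = 0.754).

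Cyp51 encodes the demethylase that takes a methyl group from lanosterol, an early step of the route from lanosterol to cholesterol. The log2 values of Cyp51 were 5.21 and 5.31 in wild-type ascending, 5.68 and 5.14 in wild-type descending, 6.15 and 6.49 in knockout ascending and 6.05 and 6.02 in knockout descending aorta. All knockout arrays were above all wild-type arrays, the wild-type groups overlapped, and knockout ascending lay above knockout descending. Cyp51 had an averaged difference of 0.84 ± 0.19 (SE), or 1.79-fold (limma adjusted p = 0.195).

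Insig1 encodes the endoplasmic reticulum protein that retains the SREBP escort SCAP when sterols are plentiful. Insig1 had log2 values of 6.87 and 6.17 in wild-type ascending, 6.17 and 5.46 in wild-type descending, 7.04 and 7.05 in knockout ascending and 6.85 and 6.47 in knockout descending aorta. Knockout ascending was above every other group, and knockout descending overlapped wild-type ascending but not wild-type descending. The averaged difference was 0.69 ± 0.24 (SE), or 1.61-fold (limma adjusted p = 0.352). It was 0.33 without both narrower wild-type arrays, which held the lower Insig1 value of each wild-type group.

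Separation of the groups was also counted array by array. In 6 of the 7 genes, all but Mvd, both knockout ascending arrays were above both wild-type ascending arrays, as in 21.5% of all genes. In 5 of the 7, all but Mvd and Lss, this held in the descending segment, where it held in 21.6% of all genes, and those 5 were separated in both segments, as were 7.81% of all genes. In 2 of the 7, Hmgcs1 and Cyp51, all 4 knockout arrays were above all 4 wild-type arrays, as in 4.76% of all genes. Changes over all genes moved with level: the median averaged change was -0.14 in the dimmest of 5 equal classes of genes, 0.14 in class 4, which held Mvd, Fdps, Sqle and Cyp51, and 0.24 in the brightest, which held Hmgcs1 and Insig1. Lss lay in class 3, which had a median of -0.036. The differences of Hmgcs1, Cyp51, Fdps, Sqle, Insig1 and Lss were above the median of their class, and that of Mvd was below it.

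In the ascending segment, the usual site of aneurysm in fibulin-4 deficiency, Hmgcs1 differed most, at 1.54 ± 0.31 (SE) or 2.91-fold (limma adjusted p = 0.238). Cyp51 differed by 1.06 ± 0.27 (SE) or 2.08-fold (adjusted p = 0.352) and Fdps by 0.91 ± 0.25 (SE) or 1.87-fold (adjusted p = 0.386). These 3 were the members higher at an unadjusted p under 0.05, a threshold passed upward by 5.31% of all genes, while 0.00% of all genes passed an adjusted p under 0.05. Sqle differed by 0.57, Insig1 by 0.52, Lss by 0.22 and Mvd by -0.16, each with a 95% interval that included 0. Single arrays moved Sqle from 0.14 (without knockout ascending replicate 2) to 1.00 (without replicate 1), and Insig1 to 0.88 without wild-type ascending replicate 1 and to 0.17 without both narrower arrays. The median over the 7 was 0.57.

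In the descending segment all 7 differences were above 0, as were 53.7% of those of all genes, though that of Mvd was -0.013 after quantile normalization. Insig1 differed by 0.85 ± 0.34 (SE) or 1.80-fold (limma, adjusted p = 0.823) and Cyp51 by 0.62 ± 0.27 (SE) or 1.54-fold (adjusted p = 0.838). These 2 were higher at an unadjusted p under 0.05, as were 3.63% of all genes, and 0.00451% of all genes passed the adjusted threshold. Without both narrower arrays they differed by 0.49 and 0.35. Insig1 missed that threshold in 4 of 18 alternatives: over every row, without both narrower arrays, without wild-type descending replicate 2 and without knockout descending replicate 1. Cyp51 missed it in those 4 and in 7 others, among them median centring, quantile normalization, the replicate block and fitting only the groups compared. Sqle differed by 0.55, Hmgcs1 by 0.46 (0.30 without both narrower arrays), Fdps by 0.45, Lss by 0.10 and Mvd by 0.04, and the median over the 7 was 0.46.

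**Figure D2:**
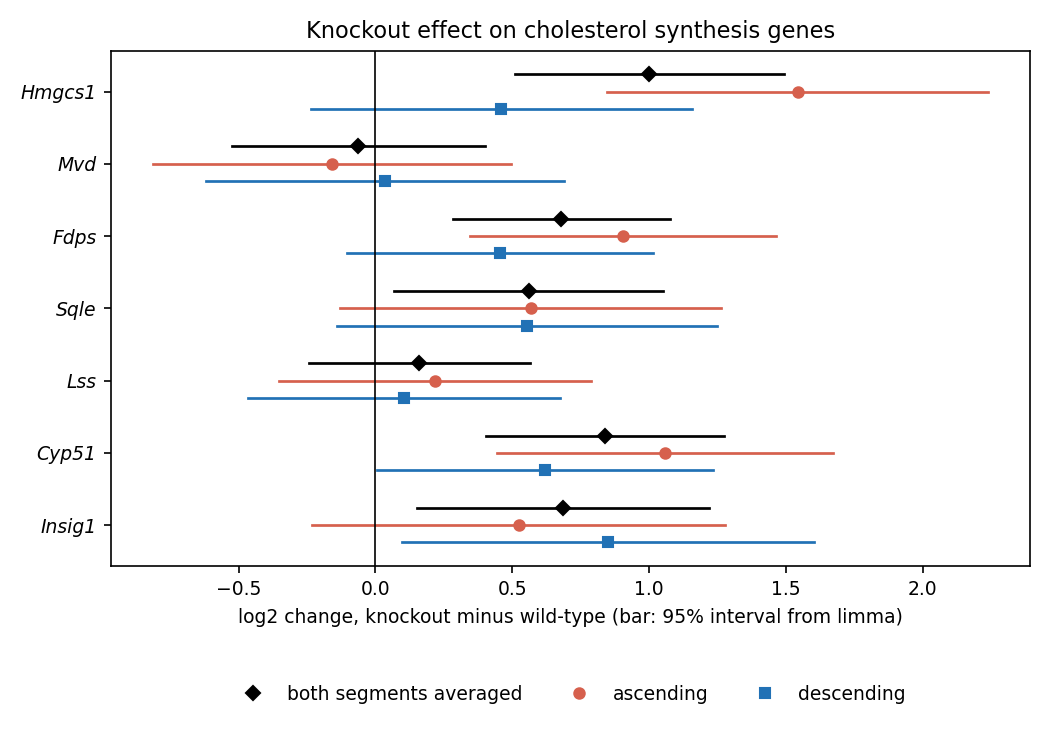
Difference between knockout and wild-type (x axis, log2) for each measured cholesterol synthesis gene, averaged over segments (diamonds), in ascending (circles) and in descending aorta (squares), with 95% intervals from limma. The intervals of Mvd and Lss include 0 in every comparison, and the ascending value of Hmgcs1, 1.54, is the largest.

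The test of whether the knockout difference itself differed between the segments compared the ascending with the descending effect. Hmgcs1 was the 1 member past an unadjusted p under 0.05, with an ascending effect larger by 1.08 ± 0.44 (SE) (limma adjusted p = 1.00), where 1.62% of all genes were higher at that threshold and 0.00% passed the adjusted one. That value was 0.70 without wild-type ascending replicate 1, the array with the lowest Hmgcs1 value, and 1.63 without both narrower arrays. It missed the unadjusted threshold in 6 of 17 alternatives, namely over every row and without replicate 1 of any of the 4 groups or replicate 2 of knockout ascending aorta. The other differences between segments were 0.45 for Fdps (0.29 without both narrower arrays), 0.44 for Cyp51 (0.76 without them), 0.11 for Lss, 0.01 for Sqle, -0.20 for Mvd and -0.33 for Insig1, each with an interval that included 0.

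Between segments of wild-type aorta, Hmgcs1 was lower in the ascending segment by a log2 difference of -0.82 ± 0.31 (SE) (limma adjusted p = 0.756). It was the 1 member past the unadjusted threshold in that direction, which 2.98% of all genes passed, and 0.00902% of all genes passed the adjusted one. Hmgcs1 missed the unadjusted threshold when only the groups compared were fitted and without replicate 1 of either wild-type group. Leaving out wild-type ascending replicate 1 gave -0.43, and leaving out both narrower arrays gave -1.37. Insig1 differed the other way, at 0.71 higher in the ascending segment with a 95% interval from -0.05 to 1.46, and Fdps by 0.32, while Mvd, Sqle, Lss and Cyp51 lay between -0.16 and 0.16.

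Between segments of knockout aorta, Fdps was higher in the ascending segment by 0.77 ± 0.25 (SE) or 1.71-fold (limma adjusted p = 1.00). It was the 1 member past the unadjusted threshold, which 2.00% of all genes passed upward, and 0.00% passed the adjusted one. Fdps missed the unadjusted threshold without knockout ascending replicate 2 (0.68) and without knockout descending replicate 2 (0.66). In 4 of the 7 genes, Hmgcs1, Fdps, Cyp51 and Insig1, both knockout ascending arrays were above both knockout descending arrays, as in 18.3% of all genes. Hmgcs1 differed there by 0.26, against -0.82 in wild-type, and Insig1 by 0.38, against 0.71. Of the 2 segments, the ascending one held the lower Hmgcs1 values in wild-type and the higher ones in knockout aorta.

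Of 14 other enzymes of the route that were listed, 11 were measured. In the averaged comparison 8 of the 11 were above 0 (49.8% of all genes), 1 was higher (7.57% of all genes) and 0 were lower (3.83%) at an unadjusted p under 0.05, 0 passed the adjusted threshold, and the median was 0.33. That count is near the share over all genes. Counts above 0 in this and the following lists were not adjusted for level, with which changes over all genes moved. The gene past the threshold was Msmo1, the methyl oxidase that acts after Cyp51 on the same sterols. The Msmo1 log2 values were 4.75 and 4.78 in wild-type ascending, 5.19 and 5.01 in wild-type descending, 5.88 and 5.90 in knockout ascending and 5.38 and 5.77 in knockout descending aorta. All knockout arrays of Msmo1 were above all wild-type arrays, as in 4.76% of all genes, and its averaged difference was 0.80 ± 0.18 (SE) (limma adjusted p = 0.172). Fdft1, the squalene synthase that commits farnesyl diphosphate to sterols, differed by 0.48 (adjusted p = 0.505), Hsd17b7, a sterol ketone reductase, by 0.35 and Ebp, a sterol isomerase, by 0.33. In the ascending segment 2 of the 11 were higher at the unadjusted threshold (5.31% of all genes), Msmo1 at 1.12 and Pmvk, the phosphomevalonate kinase, at 0.73. In the descending segment 0 of the 11 were (3.63% of all genes), with Msmo1 at 0.48 and Pmvk at -0.19, the lowest of the list. Pmvk was named after its values were seen.

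**Figure D3:**
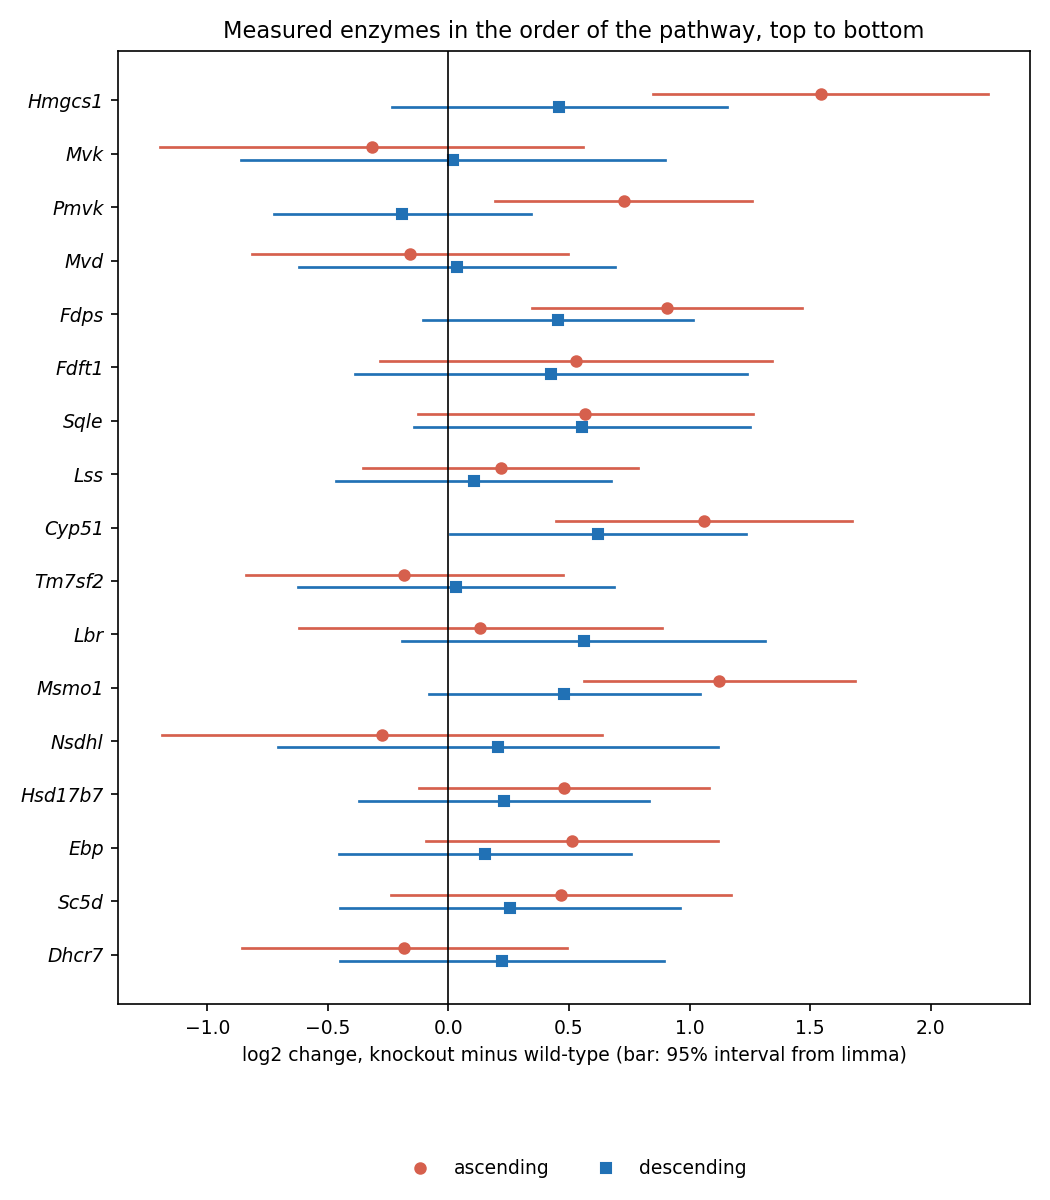
Difference between knockout and wild-type (x axis, log2, with 95% intervals from limma) of measured enzymes from HMG-CoA to cholesterol, in ascending (circles) and descending aorta (squares). They follow the order of the route from top to bottom, and Idi2 is not shown. Hmgcs1, Fdps, Cyp51 and Msmo1 have ascending values of 0.91 to 1.54. Mvk, Mvd, Tm7sf2, Nsdhl and Dhcr7 are below 0 there, and the other enzymes shown lie between 0.13 and 0.73.

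Of the genes that sense sterols and process SREBP proteins, 10 of 11 were measured, 9 were above 0 in the averaged comparison (49.8% of all genes), 3 were higher (7.57%) and 0 lower (3.83%) at an unadjusted p under 0.05, 0 passed the adjusted threshold, and the median was 0.26. The 3 were Rnf139, a sterol-binding ubiquitin ligase of the endoplasmic reticulum (1.19 ± 0.30 SE, adjusted p = 0.237 in limma), Erlin2, a membrane scaffold of the same compartment (0.79, adjusted p = 0.347), and Srebf2, which encodes SREBP-2 itself. Srebf2 had log2 values of 7.05 and 6.24 in wild-type ascending, 6.94 and 6.72 in wild-type descending, 7.57 and 7.52 in knockout ascending and 7.40 and 7.20 in knockout descending aorta. Every knockout value of Srebf2 was above every wild-type value, as in 4.76% of all genes, and the averaged difference was 0.69 ± 0.21 (SE) (limma adjusted p = 0.321). Srebf1, the paralog that favours fatty acid genes, differed by 0.35, Erlin1 by 0.32, Scap by 0.05 and Insig2, the sister of Insig1 that is not a usual SREBP target, by -0.08, none past the unadjusted threshold. The list's median of 0.26 stands beside 0.14 in class 4 and 0.24 in the brightest class of all genes. Its median percentile was 65.1 to 80.8 over the arrays.

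Cholesterol uptake and transport genes numbered 6 measured of 8. In the averaged comparison 5 of the 6 were above 0 (49.8% of all genes), 3 were higher (7.57%) and 0 lower (3.83%) at an unadjusted p under 0.05, 0 passed the adjusted threshold, and the median was 0.52. They were Lrp1, an endocytic receptor for lipoproteins and many other ligands (0.84 ± 0.18 SE, limma adjusted p = 0.163), and Npc1 and Npc2, which pass cholesterol out of lysosomes (0.59 and 0.58, adjusted p = 0.349 and 0.423). Scarb1, the HDL receptor, differed by 0.45 without passing.

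Genes that respond to LXR, the nuclear receptors switched on by oxidised sterols, or that export or store cholesterol, were 8 measured of 10, with 6 above 0 (49.8% of all genes), 2 higher (7.57%) and 0 lower (3.83%) at an unadjusted p under 0.05, 0 past the adjusted threshold and a median of 0.35. The 2 were Mylip, a ubiquitin ligase induced by LXR (0.73, limma adjusted p = 0.221), and Abca1, the exporter of cholesterol to apolipoproteins (0.49, adjusted p = 0.416). Apoe, a lipoprotein ligand, differed by 0.32 and Abcg1, an exporter to HDL, by 0.38. Fatty acid genes under SREBP-1 were 11 measured of 12, with 9 above 0 (49.8% of all genes) and a median of 0.19. That median lay between the 0.14 of class 4 and the 0.24 of the brightest class of all genes. The list's median percentile was 72.6 to 83.8 over the arrays. At an unadjusted p under 0.05, 1 was higher (7.57% of all genes) and 1 lower (3.83%), so that both counts are near the shares over all genes. The higher gene was the desaturase Fads2 at 0.57 (limma adjusted p = 0.337) and the lower one Thrsp, a lipogenic protein of fat and liver, at -0.93 (adjusted p = 0.322), while Acaca, the acetyl-CoA carboxylase, was at 0.31 and Fads1, a second desaturase, at 0.36. The list for the prenyl branch, which takes farnesyl diphosphate to protein prenylation, ubiquinone and dolichol, was 11 measured of 12, with a median of 0.14. It also held Idi2, a paralog of Idi1 that acts before farnesyl diphosphate. Of the 11, 9 were above 0 (49.8% of all genes), and 0 were higher (7.57%) and 0 lower (3.83%) at the unadjusted threshold. The genes of that list with the smallest p were Rabggta at 0.44, Ggps1 at 0.35, Coq2 at -0.46 and Pggt1b at 0.24.

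The 5 genes most like the members were found from the mean of the 7 members' centred values over the 8 arrays. That mean was -0.20 and -0.33 in wild-type ascending, -0.19 and -0.39 in wild-type descending, 0.27 and 0.53 in knockout ascending and 0.25 and 0.06 in knockout descending aorta. Knockout arrays were all above wild-type arrays, with knockout descending replicate 2 the nearest to them. Pearson's r to this profile over the 8 arrays was 0.990 for Cd109, a membrane-anchored protein that binds TGF-beta, and 0.986 for Itga5, a chain of the fibronectin receptor. It was 0.973 for Lrrc32, which holds latent TGF-beta at the cell surface, 0.972 for Sh3rf1, a scaffold and ubiquitin ligase, and 0.970 for Myh9, a non-muscle myosin heavy chain. Among the members r was 0.956 for Cyp51, 0.892 for Fdps, 0.802 for Insig1, 0.796 for Sqle, 0.728 for Hmgcs1, 0.652 for Lss and 0.0834 for Mvd, each of which enters the mean. The arrays fall into 2 genotypes, each with 4 arrays, and r was not computed within them.

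Markers of other cells moved with genotype beside these genes, and 49.8% of all genes were above 0 in the averaged comparison. All 10 myeloid markers were above 0 in the averaged comparison, with a median of 0.86, and their mean log2 level was 6.61 to 6.998 in wild-type ascending, 7.05 to 7.29 in wild-type descending, 7.69 to 7.94 in knockout ascending and 7.48 to 7.93 in knockout descending aorta. The myeloid median was 1.19 in the ascending and 0.50 in the descending segment. At an unadjusted p under 0.05, 7 of 10 myeloid markers were higher in the ascending segment (5.31% of all genes). In the descending segment 3 of 10 were higher (3.63% of all genes). All 9 measured proliferation markers were above 0 in the averaged comparison, with a median of 0.38. The proliferation median was 0.06 in the ascending and 0.61 in the descending segment. Smooth muscle markers had a median of 0.27 (8 of 10 above 0) and fibroblast markers of 0.22 (9 of 10). Both medians were near the 0.24 of the brightest class of all genes. The median percentile of these lists was 96.4 to 99.1 over the arrays. The mean level of the smooth muscle, the fibroblast and the myeloid list was higher in every knockout array than in every wild-type array, as was that of the 7 cholesterol synthesis genes. Cardiomyocyte markers had a median of 0.32 (9 of 10 above 0), which was 0.13 in the ascending and 0.68 in the descending segment. In the descending segment 4 of 10 were higher at an unadjusted p under 0.05, as were 3.63% of all genes. None of the 10 endothelial markers was above 0 (median -0.44). Their median was -0.78 in the ascending segment, with 7 of 10 lower at an unadjusted p under 0.05 (3.60% of all genes). In the descending segment the endothelial median was -0.11, with 0 of 10 lower (2.32% of all genes). None of the 10 adipocyte markers was above 0 either (median -0.85), and they were at 7.79 and 6.96 in wild-type descending against 5.45 to 6.31 in the other groups. Skeletal muscle markers were at 7.23 and 8.40 in wild-type ascending and 5.54 to 6.59 elsewhere. Markers of adrenal steroid cells, which use cholesterol heavily, stayed at a mean of 4.39 to 4.74 on all arrays, with a median percentile of 26.9 to 41.4. RMA values have no 0, so no marker can be called absent, and the part of these cells in the cholesterol gene values was not tested.

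**Figure D4:**
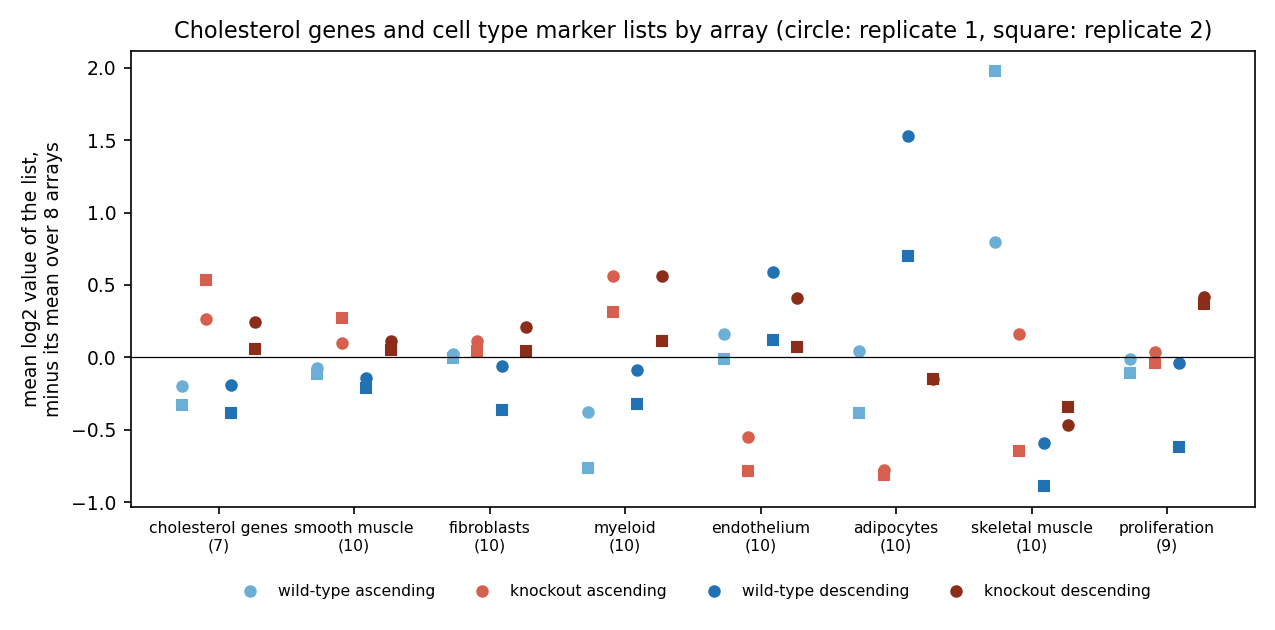
Mean log2 value of each list minus its own mean over the 8 arrays (y axis) for the 7 cholesterol synthesis genes and 7 marker lists (x axis, number of genes in brackets), with circles for replicate 1 and squares for replicate 2, coloured by group. The cholesterol genes and the smooth muscle, fibroblast and myeloid markers are higher in all 4 knockout arrays than in the wild-type arrays, and the adipocyte and skeletal muscle lists stand out in wild-type descending and wild-type ascending aorta.

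**Figure D5:**
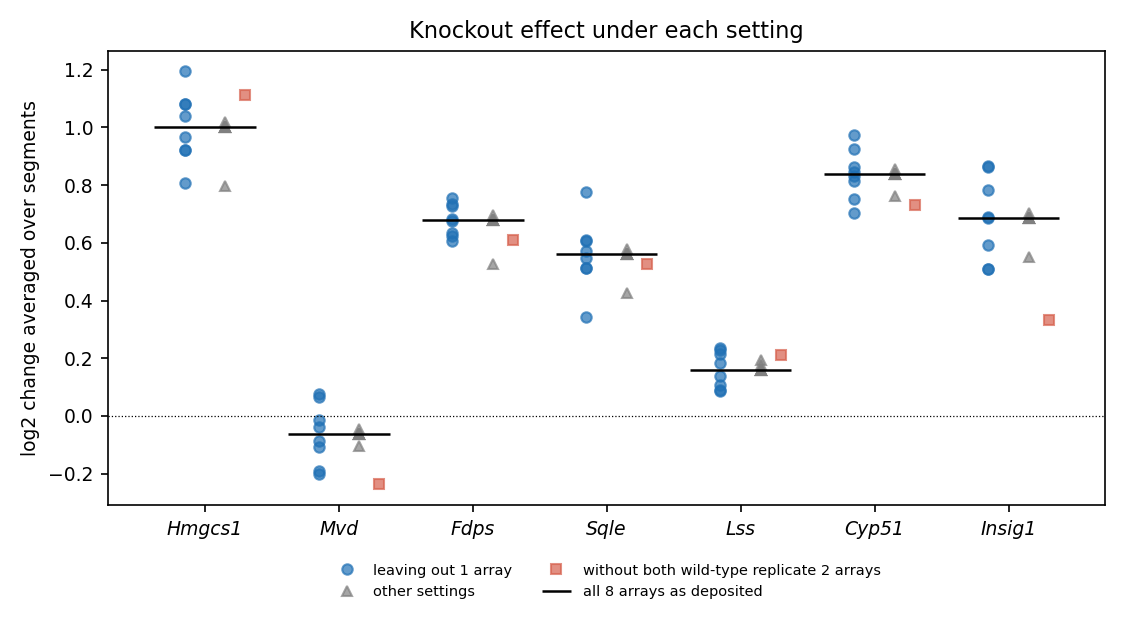
Averaged difference between knockout and wild-type (y axis, log2) of each measured cholesterol synthesis gene with all 8 arrays (line), leaving out 1 array in turn (circles), without both wild-type replicate 2 arrays (square) and under the other settings (triangles). Hmgcs1 stayed between 0.80 and 1.19, Insig1 ranged from 0.33 to 0.86, and Mvd lay on both sides of 0.

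Under the alternative settings the members differed in how far their averaged value moved. Over 17 alternatives Hmgcs1 lay between 0.80 and 1.19, Cyp51 between 0.70 and 0.97 and Fdps between 0.53 and 0.75, each with an unadjusted p under 0.05 in all 17. Insig1 kept that threshold in 13 of the 17 and Sqle in 10. The smallest adjusted p of any member in any comparison was 0.0608, for Hmgcs1 in the ascending segment without both wild-type replicate 2 arrays, where its difference was 1.93.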

How the data were processed

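RNA from pools of 8 pups was amplified from a few nanograms with a NuGEN whole-transcript kit and labelled with biotin, per the labels' protocols. The authors deposited log2 values per probe set, for which the submitters' processing notes name RMA and Affymetrix Expression Console. RMA compresses differences of dim genes. The versions and genome build used: not given in the sources used here.

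Of 41345 rows, 23521 were annotated to 1 gene symbol, 1814 to several and 16010 to none. Where several rows shared a symbol (1082 genes), the one with the highest mean was used, so 22180 genes were tested. By gene identifier, 23328 single-symbol rows matched RefSeq. Fibulin-4 itself and some listed genes were not analysed here.

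The linear model (limma 3.58.1, R 4.3.3) had a mean per group over 8 arrays (4 residual and 5.52 prior degrees of freedom), and p-values were adjusted by Benjamini-Hochberg over all genes. With 2 arrays a group, precision is limited by their number. The procedure was tested on simulated data. Plots used matplotlib 3.10.9 in Python 3.11.15.

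The members and gene lists were chosen with earlier results of these data known. The text names every member, up to 4 genes per related list with the smallest unadjusted averaged p, a few fixed regulators and enzymes, and the 5 genes most like the members among non-predicted genes at least as variable as the median member. The alternatives were median centring, quantile normalization, array weights, the trend and robust options of limma, a replicate block, fitting only the groups compared, averaging a gene's rows, testing every row, dropping the dimmest 25% of genes, leaving out each array, and leaving out both wild-type replicate 2 arrays. Same-numbered arrays of different groups deviated from their group means with correlations across genes of 0.29 between the wild-type groups and -0.078 to 0.12 otherwise. The labels do not state that equal numbers pair pools, and whether both segments came from the same pups was not tested. The main model took the arrays as independent, and the replicate block was an alternative.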

Additional observations from a re-analysis of the deposited data

How the results depend on the processing

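No member passed an adjusted p under 0.05 under any alternative in any comparison. The 16 genes called in the averaged comparison became 2 after quantile normalization, 35 without the dimmest 25% of genes, 1 over every row and 25 without both wild-type replicate 2 arrays, and 0 to 50 when 1 array was left out. The 5 members higher at an unadjusted p under 0.05 became 3 without both wild-type replicate 2 arrays and 3 to 5 when 1 array was left out. In the descending segment the 2 members became 1 after median centring, after quantile normalization, with the replicate block and with only the groups compared, 0 over every row and without both arrays, and 0 to 2 when 1 array was left out. The replicate block kept the averaged count at 5 and the ascending count at 3. After quantile normalization Sqle missed the unadjusted threshold in the averaged comparison, while Hmgcs1, Cyp51, Fdps and Insig1 kept it. Without both arrays, the difference between segments turned to -0.11 for Sqle and -0.082 for Lss, which was then the median of the 7, and the descending difference of Mvd turned to -0.058; after quantile normalization the latter was -0.013. Leaving out 1 array moved Mvd between -0.20 and 0.076 averaged, -0.42 and 0.095 ascending and -0.24 and 0.31 descending, and Lss between -0.044 and 0.25 descending. It moved the ascending median between 0.47 and 1.00. For the difference between segments it gave a median of -0.026 to 0.45, with Mvd at -0.47 to 0.080, Sqle at -0.42 to 0.44, Lss at -0.035 to 0.26 and Insig1 at -0.68 to 0.029. The cause of these shifts was not tested.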
